A study of Mus musculus with 5 samples.

Results

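A set of 34 mouse genes that carry glucose from its first phosphorylation to lactate, or into the mitochondrion, was followed in single T cells. The set holds the hexokinases, the enzymes of the glycolytic chain, the lactate dehydrogenases and lactate transporters, the pyruvate dehydrogenase complex with its kinases, the mitochondrial pyruvate carrier and the transcription factor Hif1a. The genes were taken by symbol, and 34 of 34 were found among the 32245 gene symbols of the deposited matrices. Their levels were measured in T-cell barcodes, meaning those with a count of Cd3d, Cd3e or Cd3g, the invariant chains of the T-cell receptor complex. Each library was then split into barcodes with and without a count of Irf4 or Nr4a1, a pair of genes whose transcription follows stimulation of that receptor.

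The study profiled OT-II cells, CD4 T cells whose transgenic receptor recognises an ovalbumin peptide, in 5 groups of 1 sample each. The groups were OT-II + rKPC apCAF + OVA, OT-II + sKPC apCAF + OVA, OT-II + rKPC apCAF given DMSO, OT-II + sKPC apCAF given DMSO, and OT-II cells with neither fibroblasts nor treatment. The T cells of all 5 groups were splenocytes of a naive OT-II mouse, enriched by negative selection with a STEMCell kit, so other splenic cells can remain. The apCAFs, antigen-presenting cancer-associated fibroblasts, were sorted by flow cytometry from pancreatic tumors of the mouse clones sKPC or rKPC, and cocultures ran overnight before 10x Genomics 5′ libraries were made. The ages of the animals are not stated in the sources used here. The labels place 2 samples in one count matrix, G, and 3 in the other, H, but the barcodes carried 3 library suffixes in G and 2 in H. No library could therefore be tied to a group, and none of the study's contrasts between cultures was computed. The libraries are named Ga, Gb, Gc, Ha and Hb, and each is compared only within itself, barcode class against barcode class. With 1 unassigned library behind each value there is no replicate, and no p-value is given.

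Glycolysis splits glucose into pyruvate with a small yield of ATP. Pyruvate is then reduced to lactate by lactate dehydrogenase and exported, or carried into the mitochondrion and oxidised by pyruvate dehydrogenase, a step that the pyruvate dehydrogenase kinases hold back. Resting naive T cells are known for low glucose use and oxidative metabolism, and T cells stimulated through their receptor for a strong increase in glycolysis and lactate release.

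The 5 libraries held 3549 to 7136 barcodes and 27339447 to 61279131 unique molecular identifiers (UMIs, tags that count each captured RNA molecule once). Of 24890 barcodes with at least 500 UMIs and at most 10% mitochondrial UMIs, 22874 were T-cell barcodes, or 91.9%. Any pair of libraries shared 2 to 14 barcode sequences, so no library repeated another. Each barcode was thinned at random to 3000 UMIs, which kept 21663 barcodes and left out 1211 shallower ones (169 to 330 per library). All levels are sums of thinned UMIs within a class of barcodes, scaled to 1000000 UMIs of that class (CPM). Intervals are exact 95% intervals that cover counting error only, treat UMIs as independent, and leave out differences between cells, cultures and animals. The matrices were aggregated separately, so a level in a library of G set beside one in a library of H can also carry that difference. The T-cell label held in the kept barcodes: Trac, the constant region of the receptor alpha chain, had a UMI in at least 96.3% of every class of every library.

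Barcodes with a UMI of Irf4 or Nr4a1, called marked here, were common in Ga and Gc and rare in the other 3 libraries. They were 934 of 5004 in Ga (18.7%, interval 17.6 to 19.8%) and 1013 of 6089 in Gc (16.6%, interval 15.7 to 17.6%). They were 27 of 2912 in Gb (0.927%), 30 of 3928 in Ha (0.764%) and 14 of 3730 in Hb (0.375%). Before thinning the shares were 25.5% in Ga, 22.9% in Gc, 2.27% in Gb, 2.09% in Ha and 1.34% in Hb. As a measure of free RNA, barcodes with at least 3 of 5 erythroid markers and no Cd3 UMI were pooled over libraries. None of these 147 was marked at the same depth, which allows a share of up to 2.48% by the exact interval. The median of those barcodes was 8962 UMIs, against 8889.5 in the T-cell barcodes of Ga and 8657 in those of Gc. The erythroid barcodes numbered 32 in Gb, 27 in Ha and 28 in Hb, which alone allow up to 10.9%, 12.8% and 12.3%. Whether the marked barcodes of Gb, Ha and Hb are background was not tested. Marked barcodes also held more RNA: their median total was 10512 UMIs in Ga and 10169 in Gc, against 8618 and 8426.5 in the unmarked ones. A list of 12 other early targets of the receptor held Egr1, Il2ra, Cd69 and Myc among others. All 12 were at least 1.5-fold higher in the marked barcodes of Ga and of Gc, beside 19.5% and 18.8% of all genes. Egr2 and Egr3, and Nr4a2 in Ga, met the minimum level set out below only through the marked barcodes. The list was also chosen with earlier results of these data known, so this count is a description only.

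Summed over the 34 genes, the level differed little between the classes. It was 1907 CPM in marked and 1774 CPM in unmarked barcodes of Ga, a ratio of 1.07 (interval 1.04 to 1.11). In Gc it was 1883 CPM in marked and 1720 CPM in unmarked barcodes, a ratio of 1.09 (interval 1.06 to 1.13). The ratio was 1.19 in Gb (interval 1.02 to 1.38), 1.23 in Ha (interval 1.07 to 1.41) and 1.02 in Hb (interval 0.808 to 1.27). The median barcode held 5 UMIs of the set in both classes of Ga and of Gc, with quartiles of 4 and 7 in the marked and 3 and 7 in the unmarked ones, and a median of 4 of the 34 genes had a UMI in each class. Under this near-level sum, single enzymes moved both ways. Leaving out Pdk1, the member with the most UMIs, raised the log2 ratio of the sum to 0.24 in Ga and 0.27 in Gc, against 0.10 and 0.13 with it.

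**Figure D1:**
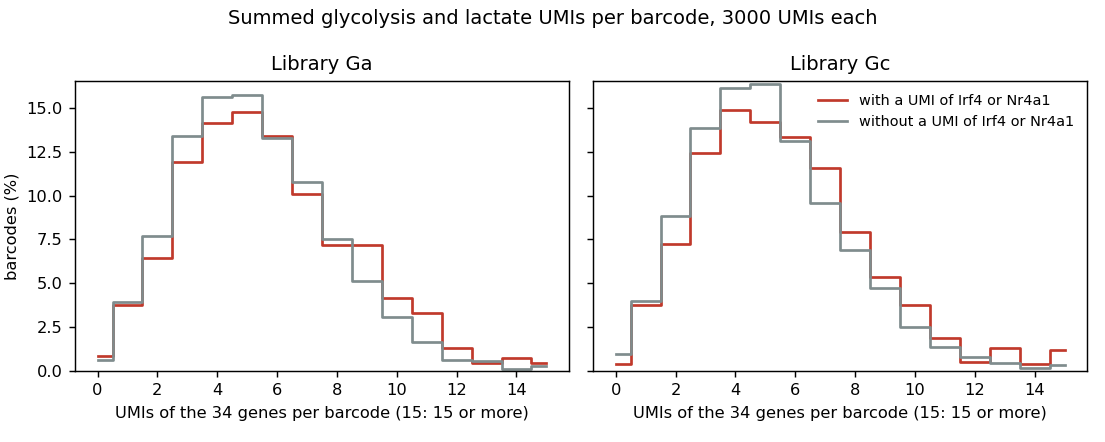
Share of barcodes (y axis, percent) by the number of UMIs of the 34 genes each held after thinning to 3000 UMIs (x axis, the last step pools 15 or more), for libraries Ga and Gc. Red lines are barcodes with and grey lines barcodes without a UMI of Irf4 or Nr4a1. The curves lie nearly on each other, with a median of 5 UMIs in every class.

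A gene was called where its ratio of CPM, with 0.5 UMI added to each sum, was at least 1.5-fold, and it was measured in a library where its library-wide level predicted at least 10 UMIs in the marked barcodes. In Ga, 6 of 28 measured members were higher in marked barcodes, beside 19.5% of all 10387 genes measured there, and 10 were lower, beside 24.8%. In Gc, 7 of 29 were higher, beside 18.8% of 10485 genes, and 7 were lower, beside 21.9%. Lower members made up a larger part of the measured ones in Ga than over all genes. The other 3 shares lay closer to those of all genes. Among the lower members of Ga, Pfkm, Pfkfb1, Pfkfb2, Tpi1, Eno3 and Pdk2 had 5 to 11 UMIs in marked barcodes. With a minimum of 25 predicted UMIs, 4 of 21 members were lower in Ga, beside 22.8% of all genes. Whether the set differs from other genes was not tested. Hk2 reached the minimum in Gc through the marked barcodes, where it is high, so these counts describe the members and support nothing further. The median log2 ratio of the measured members was -0.20 in Ga and -0.08 in Gc, beside -0.05 for all genes in each. Pfkp, Pfkfb3, Aldoa, Pgk1, Pgam1 and Slc16a1 were higher in both libraries, which is 100% of the members higher in Ga and 85.7% of those in Gc, beside 80.9% and 83.0% over all genes. Hk1, Gpi1, Pfkfb1, Pfkfb2, Tpi1, Pdk1 and Pdk2 were lower in both. That is 70.0% of the members lower in Ga and 100% of those in Gc, beside 70.2% and 78.8% over all genes. The log2 intervals of Pfkfb1 include no change in Ga (-1.86 to 0.36) and in Gc (-1.92 to 0.27). So does that of Pdk2 in Ga (-1.78 to 0.20). Of the 34 members, 29 had at least 100 thinned UMIs over the 5 libraries. The other 5, Hk3, Aldoc, Pgam2, Eno2 and Slc16a3, had 9 to 93 UMIs in all and are not read further.

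The classes differed in more than the set. Marked barcodes held a Cd4 UMI less often (19.8% against 38.8% in Ga, 17.6% against 40.3% in Gc). They also held Trdc, the delta constant region found on gamma-delta and some innate-like cells, less often (4.50% against 14.9% in Ga, 5.23% against 13.6% in Gc). When only Cd4+ barcodes without Foxp3, Trdc, Cd8a or Cd8b1 were used, 3 of 21 measured members were lower in Ga and 2 of 23 in Gc. There were fewer lower calls among fewer measured members, and all genes also had fewer, with 18.2% lower in Ga and 15.2% in Gc. In barcodes of 7000 to 11000 UMIs, a depth range chosen after the data were seen, 4 were higher and 5 lower of 23 in Ga, beside 17.4% and 20.9% of all genes, and 6 were higher and 5 lower of 24 in Gc, beside 17.3% and 18.8%. Markers of other cells were counted as well. The 6 B-cell markers gave a UMI in 15.4% of marked and 33.2% of unmarked barcodes of Ga, and in 15.7% and 33.1% of those of Gc. The 4 regulatory markers summed to 132 CPM in marked and 256 CPM in unmarked barcodes of Ga, and to 122 and 255 CPM in Gc, and the 4 gamma-delta markers to 39.3 against 130 CPM and 34.9 against 116 CPM. Most UMIs of the regulatory sum were of Ikzf2, with 328 of 369 in marked and 2952 of 3130 in unmarked barcodes of Ga. In Gc they were 317 of 372 and 3716 of 3890. Foxp3 alone had a UMI in 1.28% of marked and 1.52% of unmarked barcodes of Ga, and in 1.28% and 1.34% in Gc. The summed fibroblast list stood at 6.78 CPM in marked and 4.42 CPM in unmarked barcodes of Ga, and at 5.27 and 4.79 CPM in Gc. Of its 8 genes, Col3a1 and Pdgfrb were at 0 in the marked barcodes of Ga, and Col1a1, Dcn and Pdgfrb in those of Gc. The 5 erythroid genes summed to 52.8 CPM in marked and 1541 CPM in unmarked barcodes of Ga, and to 467 and 890 CPM in Gc. In a further filter, every barcode with a UMI of the B-cell, myeloid, erythroid, fibroblast or platelet markers was left out. Barcodes with regulatory, gamma-delta or CD8 markers were kept. Then 6 of 21 measured members were lower in Ga and 4 of 22 in Gc, beside 27.6% and 24.7% of all genes. This left 340 and 319 marked barcodes.

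**Figure D2:**
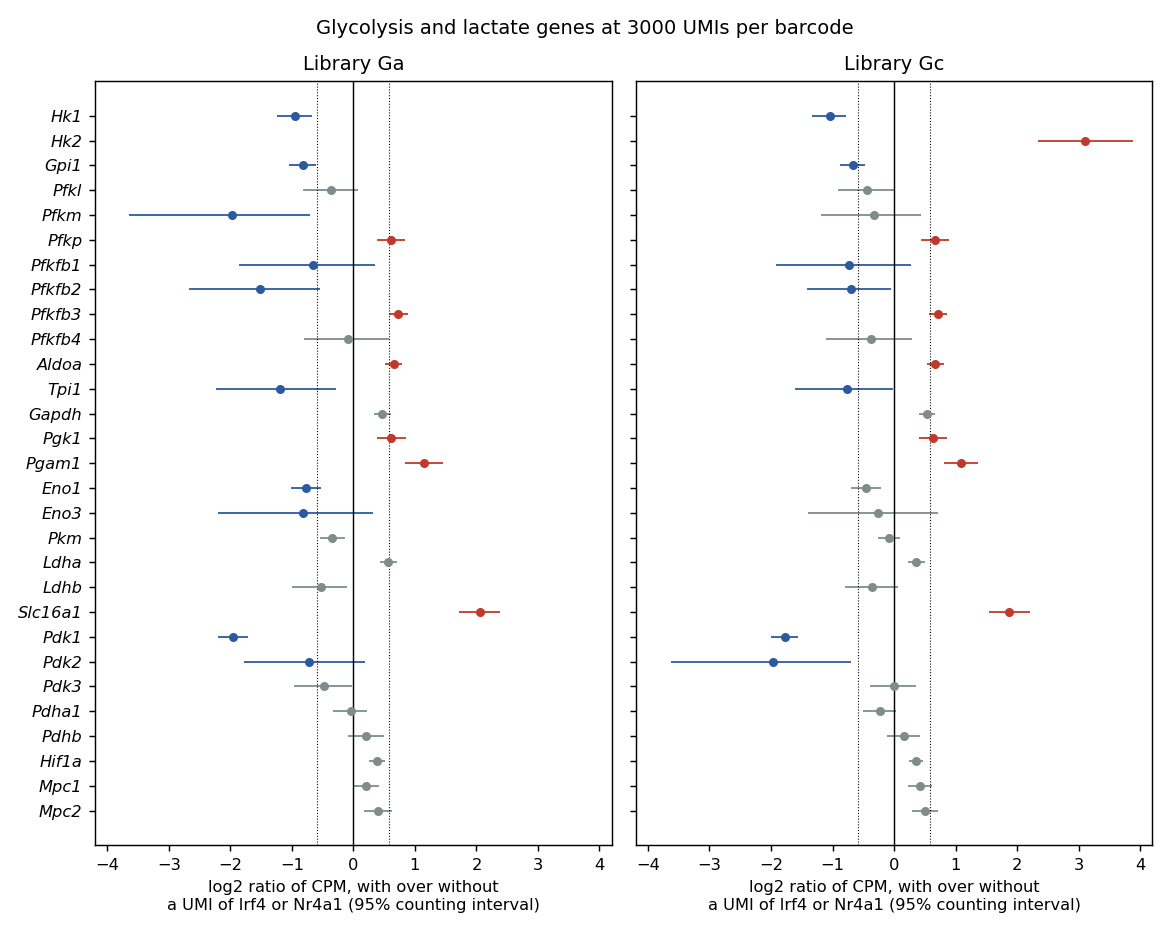
Log2 ratio of CPM in barcodes with over barcodes without a UMI of Irf4 or Nr4a1 (x axis) for each measured member (y axis, ordered along the pathway) in libraries Ga and Gc. Points are ratios, bars exact 95% counting intervals, dotted lines mark 1.5-fold, and red, blue and grey points are higher, lower and within that fold. Slc16a1 at 2.05 and 1.87 and Pdk1 at -1.95 and -1.77 lie far out on opposite sides in both panels.

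The promoters of 5 members whose levels differed the same way in Ga and Gc are shown, 3 of them higher in marked barcodes (Slc16a1, Hk2, Pgam1) and 2 lower (Pdk1, Gpi1). Each is the 250 bases before the transcription start as RefSeq gives it on build GRCm38.p6, written 5′ to 3′ on the gene's own strand. Capitals mark ACGTG, the core of the hypoxia response element, on either strand. The E-box CACGTG, to which Myc and related factors bind, contains it.
Slc16a1 (chr3:104638414-104638663, plus strand): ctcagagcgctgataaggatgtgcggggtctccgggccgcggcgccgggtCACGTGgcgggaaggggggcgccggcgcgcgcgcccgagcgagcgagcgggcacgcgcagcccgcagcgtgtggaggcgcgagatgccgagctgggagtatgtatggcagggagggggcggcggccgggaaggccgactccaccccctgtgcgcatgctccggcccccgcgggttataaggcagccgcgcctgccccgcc
Hk2 (chr6:82774455-82774704, minus strand): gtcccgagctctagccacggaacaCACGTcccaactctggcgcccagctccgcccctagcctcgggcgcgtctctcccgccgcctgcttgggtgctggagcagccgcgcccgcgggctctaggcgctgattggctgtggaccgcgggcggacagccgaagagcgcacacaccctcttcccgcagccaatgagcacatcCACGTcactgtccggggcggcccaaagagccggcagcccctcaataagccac
Pgam1 (chr19:41911621-41911870, plus strand): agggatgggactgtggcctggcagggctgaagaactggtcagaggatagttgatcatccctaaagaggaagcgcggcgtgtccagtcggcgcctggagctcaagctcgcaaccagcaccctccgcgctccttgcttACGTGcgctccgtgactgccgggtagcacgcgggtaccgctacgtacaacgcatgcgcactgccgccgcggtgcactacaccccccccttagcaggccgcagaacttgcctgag
Pdk1 (chr2:71872974-71873223, plus strand): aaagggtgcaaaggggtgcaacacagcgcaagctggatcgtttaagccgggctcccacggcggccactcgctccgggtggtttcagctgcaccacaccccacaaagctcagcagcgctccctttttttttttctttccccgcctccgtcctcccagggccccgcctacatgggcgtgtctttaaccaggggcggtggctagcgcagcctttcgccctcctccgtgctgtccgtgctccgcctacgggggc
Gpi1 (chr7:34230337-34230586, minus strand): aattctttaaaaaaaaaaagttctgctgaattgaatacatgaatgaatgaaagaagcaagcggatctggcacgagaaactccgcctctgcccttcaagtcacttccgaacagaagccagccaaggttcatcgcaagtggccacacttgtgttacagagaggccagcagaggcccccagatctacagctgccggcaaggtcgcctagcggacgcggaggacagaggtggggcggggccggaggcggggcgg
Slc16a1 holds an E-box, Hk2 holds the core in 2 places and Pgam1 in 1, and Pdk1 and Gpi1 hold none in this window. Hk2 met the minimum level in Gc only, and there through its marked barcodes, so its place here is a description only. Among members called the same way in both libraries but not shown, matches and their absence stood on both sides. Of those higher in marked barcodes, Pfkfb3 and Pgk1 hold ACGTG and Pfkp and Aldoa do not. Of those lower, Pfkfb2 and Pdk2 hold CACGTG, and Hk1, Pfkfb1 and Tpi1 hold no ACGTG. Over both strands, ACGTG was found in the window of 14 of 34 members and in 16.6% of 27025 promoters, and CACGTG, whose matches are also matches of ACGTG, in 6 members and 6.05% of promoters. The AP-1 motif TGANTCA was found in 0 members and 6.87% of promoters, and the Nr4a element AAAGGTCA in 1 member, Eno1, and 1.31% of promoters. Where a gene had several starts, the first one listed was used. A match describes these letters only and is not a measured site.

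Among the hexokinases, which phosphorylate glucose on entry, Hk1 was lower in marked barcodes of Ga and Gc, and the few Hk2 UMIs lay mostly in marked ones. Hk1, the form found in most tissues (chr10:62268855-62379908, minus strand, build GRCm38, GENCODE annotation), had 40.7 CPM in marked and 78.5 CPM in unmarked barcodes of Ga. It had 39.8 CPM in marked and 82.3 CPM in unmarked barcodes of Gc, log2 ratios of -0.95 (interval -1.24 to -0.67) and -1.05 (interval -1.33 to -0.78). Hk2 (chr6:82725025-82774454, minus strand), the inducible form that binds mitochondria, was rare among unmarked barcodes. It had 36 UMIs in marked and 14 UMIs in unmarked barcodes of Ga, that is 12.8 against 1.15 CPM, a ratio of 11.2 (interval 5.90 to 22.5). In Gc it had 41 and 24 UMIs, or 13.5 against 1.58 CPM, a ratio of 8.56 (interval 5.05 to 14.8). Hk2 met the minimum level in Gc only, and there through a library-wide level that includes the marked barcodes, so its ratios are a description. In the UMIs of Hk1, Hk2 and Hk3, the share of Hk2 was 23.7% in marked and 1.42% in unmarked barcodes of Ga. In Gc it was 24.8% and 1.84%, likewise a description. Capture can differ between paralogs, so such a share is not a share of protein. In the marked barcodes of Gb, Ha and Hb, Hk2 had 0, 1 and 0 UMIs, with 3 UMIs worth 37.0, 33.3 and 71.4 CPM, so nothing could be read there.

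Gpi1 and the phosphofructokinase step split in the same manner. Gpi1, which isomerises glucose 6-phosphate (chr7:34201330-34230336, minus strand), had 70.0 CPM in marked and 124 CPM in unmarked barcodes of Ga, and 76.7 and 122 CPM in Gc. Its log2 ratios were -0.83 (interval -1.05 to -0.61) and -0.67 (interval -0.87 to -0.47). Among Cd4+ barcodes the log2 ratio of Gpi1 in Gc was -0.31, inside 1.5-fold. Of the phosphofructokinase subunits, which catalyse the committed step, Pfkp was higher in marked barcodes (75.7 against 49.3 CPM in Ga, 72.1 against 45.4 CPM in Gc). Pfkl, the liver-type subunit, stood at 17.8 against 22.9 CPM and 15.5 against 21.0 CPM, inside 1.5-fold. Pfkm, the muscle-type subunit, was lower in Ga on 5 UMIs in marked barcodes and inside 1.5-fold in Gc. Pfkp thereby made up 79.4% of the subunits' UMIs in marked and 62.3% in unmarked barcodes of Ga, and 77.7% and 62.1% in Gc. The bifunctional enzymes that set the level of fructose 2,6-bisphosphate, the activator of phosphofructokinase, also split. Pfkfb3, the form with the highest kinase over phosphatase activity, had 170 CPM in marked and 103 CPM in unmarked barcodes of Ga, and 167 and 102 CPM in Gc. Pfkfb2 had 3.21 against 9.17 CPM and 7.24 against 11.8 CPM, on 9 and 22 UMIs in the marked barcodes. Pfkfb1, with 9 UMIs in the marked barcodes of each library, and Pfkfb4, inside 1.5-fold in both, rest on few molecules.

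In the lower part of the chain, which repays the ATP spent above it, no single direction held. Aldoa, the aldolase that cleaves fructose 1,6-bisphosphate, had 203 CPM in marked and 129 CPM in unmarked barcodes of Ga, and 188 and 118 CPM in Gc. Pgk1, the first ATP-forming kinase, had 72.1 against 47.1 CPM and 67.1 against 43.3 CPM. Pgam1, the phosphoglycerate mutase (chr19:41911923-41918660, plus strand), had 47.1 CPM in marked and 21.3 CPM in unmarked barcodes of Ga, and 49.4 and 23.2 CPM in Gc. Its log2 ratios of 1.15 (interval 0.83 to 1.45) and 1.09 (interval 0.80 to 1.37) were past 1.5-fold under every alternative tried. Gapdh, the dehydrogenase between Aldoa and Pgk1, was inside 1.5-fold, with log2 ratios of 0.47 and 0.54. Tpi1, the triose phosphate isomerase, had 3.93 CPM in marked and 8.93 CPM in unmarked barcodes of Ga, on 11 UMIs in the marked ones, and 5.26 and 8.93 CPM in Gc. Eno1, the enolase of most tissues, had 57.5 CPM in marked and 97.7 CPM in unmarked barcodes of Ga, past 1.5-fold, and 53.0 and 72.6 CPM in Gc, inside it. Eno3, the muscle form, was called lower in Ga on 7 UMIs in marked barcodes. Pkm, pyruvate kinase, was inside 1.5-fold, at 88.5 against 112 CPM and 96.1 against 102 CPM. Reads of Gapdh, Eno1, Aldoa and other members of this chain can be shared with near-identical copies elsewhere in the genome, which the counting could split or drop. Among such copies in the files, Gapdhs had 195 and Eno1b 107 thinned UMIs, while Aldoart1, Aldoart2 and Pgk2 had none. The symbol Aldoa covers 2 features of chromosome 7, with 8481 and 7 UMIs, which were summed.

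At the lactate end, the transporter differed far more than the enzyme. Slc16a1 (chr3:104638668-104658462, plus strand), which encodes the proton-coupled lactate transporter MCT1, had 55.0 CPM in marked and 13.3 CPM in unmarked barcodes of Ga. In Gc it had 43.8 CPM in marked and 12.0 CPM in unmarked barcodes. The log2 ratios were 2.05 (interval 1.72 to 2.38) and 1.87 (interval 1.54 to 2.20). A UMI of Slc16a1 was present in 14.7% of marked and 3.49% of unmarked barcodes of Ga, and in 11.7% and 3.33% of those of Gc. Among Cd4+ barcodes its log2 ratios were 1.56 and 1.58. Unmarked barcodes of the other libraries held 10.2 CPM in Gb, 10.0 CPM in Ha and 9.06 CPM in Hb, and the few marked ones there had 0, 2 and 0 UMIs. Slc16a3, which encodes the second lactate transporter MCT4, had 4 UMIs in marked and 13 UMIs in unmarked barcodes of Ga. Ldha, the lactate dehydrogenase subunit favoured in lactate-forming cells, had 188 CPM in marked and 127 CPM in unmarked barcodes of Ga, just inside 1.5-fold at a log2 ratio of 0.57. In Gc it had 172 and 134 CPM, a log2 ratio of 0.36. Ldhb, the heart-type subunit, had 17.8 against 25.8 CPM and 18.1 against 23.1 CPM. Ldha made up 91.3% of the UMIs of both subunits in marked and 83.1% in unmarked barcodes of Ga (intervals 88.7 to 93.5% and 81.3 to 84.8%). In Gc the shares were 90.5% and 85.3%.

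**Figure D3:**
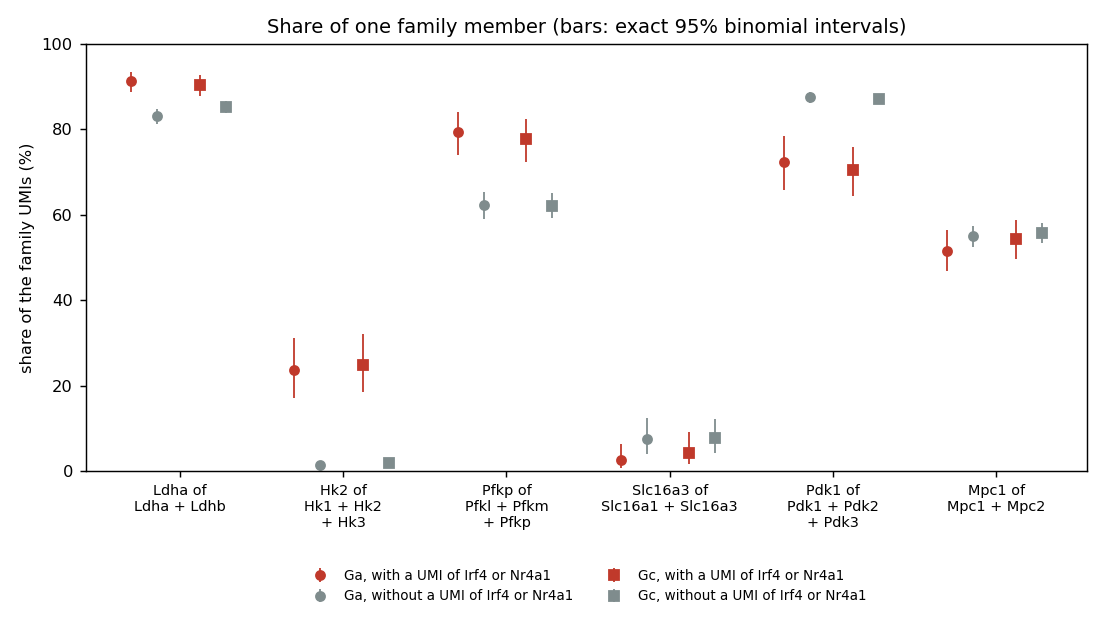
Share of 1 gene in the UMIs of its family (y axis, percent) for 6 families (x axis). Circles are library Ga and squares Gc, red symbols barcodes with and grey symbols barcodes without a UMI of Irf4 or Nr4a1, and bars exact 95% binomial intervals. The shares of Hk2, Pfkp and Ldha are higher and that of Pdk1 is lower in the red symbols of both libraries. Those of Mpc1 and Slc16a3 have overlapping intervals. The Hk2 share is a description only, since few of its UMIs lie in unmarked barcodes.

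The gate into the mitochondrion held the member that was lowest in marked relative to unmarked barcodes in both libraries among those with at least 100 UMIs in the marked barcodes. Pdk1 (chr2:71873224-71903858, plus strand), a kinase that switches pyruvate dehydrogenase off, had 52.5 CPM in marked and 203 CPM in unmarked barcodes of Ga. In Gc it had 60.2 CPM in marked and 205 CPM in unmarked barcodes. It was 3.87-fold lower in Ga and 3.41-fold lower in Gc, log2 ratios of -1.95 (interval -2.20 to -1.71) and -1.77 (interval -1.99 to -1.55). A Pdk1 UMI was present in 11.9% of marked and 39.4% of unmarked barcodes of Ga, and in 12.7% and 40.5% of those of Gc. Counted without thinning, a marked barcode held 0.535 Pdk1 UMIs on average in Ga and 0.650 in Gc, against 1.78 and 1.79 in an unmarked one, although marked barcodes held more RNA. Among Cd4+ barcodes the log2 ratio was -1.34 in Ga and -1.49 in Gc, and among barcodes of 7000 to 11000 UMIs it was -1.69 and -1.58. Marked barcodes of the other libraries had 9, 18 and 3 Pdk1 UMIs, or 111 CPM in Gb, 200 CPM in Ha and 71.4 CPM in Hb, against 228, 246 and 239 CPM in unmarked ones. In Gb Pdk1 was 1 lower call of 5 measured members, beside 16.1% of all genes, in Hb it was 1 of 1, beside 14.8%, and in Ha it was within 1.5-fold.

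The rest of the gate, Pdk2 apart, was closer to level. Pdk2 had 3.93 CPM in marked and 6.47 CPM in unmarked barcodes of Ga, and 1.65 and 6.44 CPM in Gc. Its log2 ratios were -0.72 (interval -1.78 to 0.20) and -1.97 (interval -3.62 to -0.70). They rest on 11 and 5 UMIs in the marked barcodes of Ga and Gc. Pdk3 had 16.1 CPM in marked and 22.4 CPM in unmarked barcodes of Ga, and 23.7 and 23.8 CPM in Gc. Pdk1 made up 72.4% of the kinase UMIs in marked and 87.5% in unmarked barcodes of Ga, and 70.4% and 87.2% in Gc. The substrate of these kinases was within 1.5-fold in both libraries: Pdha1, the E1 alpha subunit, had log2 ratios of -0.05 and -0.23, and Pdhb, the E1 beta subunit, 0.21 and 0.16. Mpc1 and Mpc2, the partner subunits of the pyruvate carrier of the inner mitochondrial membrane, had log2 ratios of 0.21 and 0.40 in Ga and of 0.42 and 0.51 in Gc. Mpc1 made up 51.6% of their UMIs in marked and 54.9% in unmarked barcodes of Ga, with overlapping intervals.

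Hif1a, the oxygen-regulated factor that is known to drive many of these genes, was within 1.5-fold in Ga and Gc and past it in Gb and Ha, where few barcodes were marked. It had 239 CPM in marked and 183 CPM in unmarked barcodes of Ga, and 235 and 183 CPM in Gc, log2 ratios of 0.38 and 0.36. In Gb it had 519 CPM in the 27 marked and 158 CPM in the unmarked barcodes, and in Ha 444 CPM in the 30 marked and 157 CPM in the unmarked ones. These were ratios of 3.29 (interval 2.36 to 4.47) and 2.83 (interval 2.02 to 3.87). In Gb, Hif1a and Gapdh were the 2 higher calls of 5 measured members, beside 13.1% of all genes, and in Ha, Hif1a, Gpi1 and Aldoa were 3 of 7, beside 8.77%. No member was called higher in Hb, where 1 was measured, beside 6.63%, or lower in Ha, beside 10.6%. The marked barcodes of Gb and Ha also held Foxp3, the regulatory T-cell factor, in 3.70% (1 barcode) and 6.67% (2 barcodes), against 1.07% and 1.59% of unmarked ones, and the 4 regulatory markers summed to 568 CPM in Gb and 789 CPM in Ha, against 237 and 255 CPM. Nearly all of that sum was Ikzf2, a factor that other T cells express too, with 45 of 46 UMIs in Gb and 64 of 71 in Ha, and Lrrc32 and Il1rl1 were at 0 in the marked barcodes of Gb. Other lists were also higher in the 30 marked barcodes of Ha: the 6 B-cell markers summed to 756 CPM, against 195 CPM in unmarked ones, and the 4 gamma-delta markers to 389 CPM, against 135 CPM. The part of these cells in the Hif1a levels was not tested. Among Cd4+ barcodes without Foxp3, Trdc or Cd8 UMIs, which left 16 marked ones in Gb and 10 in Ha, the log2 ratio of Hif1a was 0.87 in Gb and -0.24 in Ha.

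**Figure D4:**
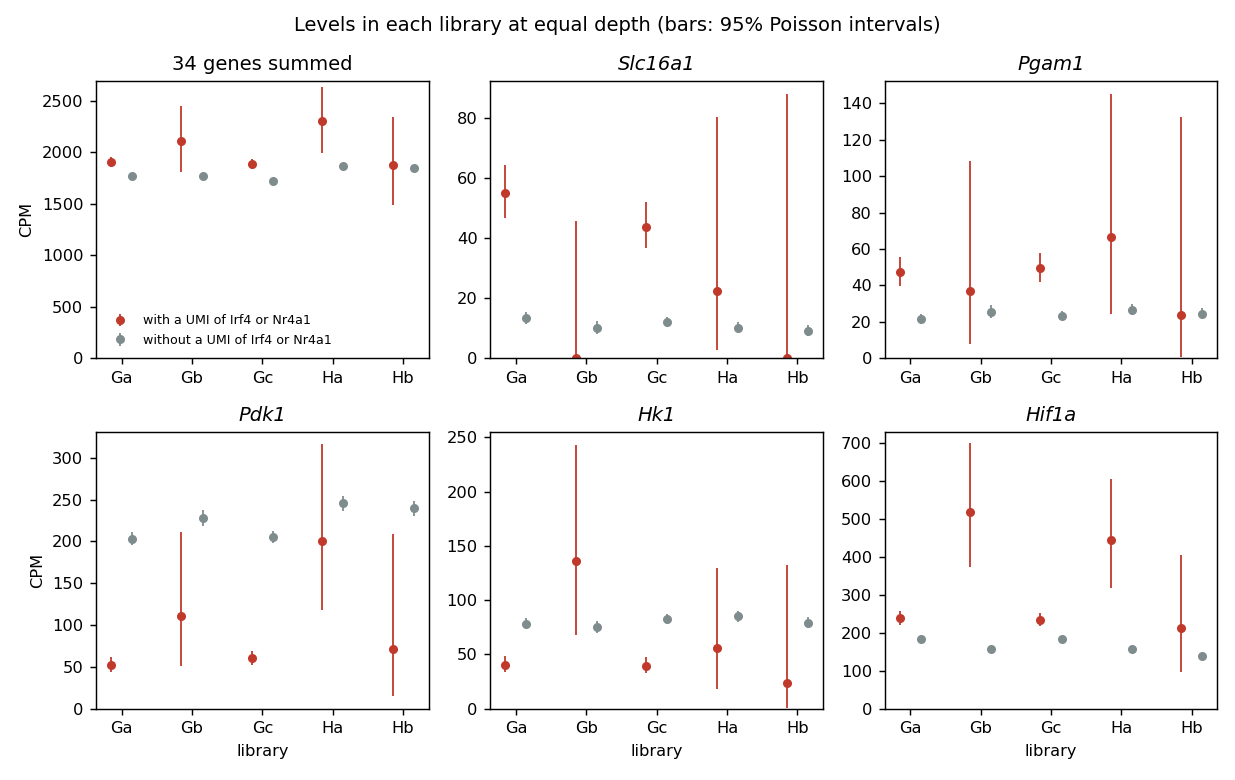
CPM (y axis) in each library (x axis) for the 34 genes summed and for 5 members, in barcodes with (red, left) and without (grey, right) a UMI of Irf4 or Nr4a1. Points are levels at 3000 UMIs per barcode and bars exact 95% Poisson intervals. Pdk1 is at 52.5 CPM with and 203 CPM without such a UMI in Ga, and the 14 to 30 marked barcodes of Gb, Ha and Hb give wide bars.

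The levels of several members followed the number of Irf4 and Nr4a1 UMIs that a barcode held. In Ga, Pdk1 stood at 203, 111, 49.4 and 24.3 CPM in barcodes with 0, 1, 2 and 3 or more of them, and in Gc at 205, 121, 47.9 and 24.9 CPM. The intervals of neighbouring bins were apart in both libraries, except those of 2 and of 3 or more UMIs, which overlapped in both. Slc16a1 stood at 13.3, 41.5, 44.4 and 64.3 CPM in Ga and at 12.0, 15.8, 41.4 and 62.5 CPM in Gc. Its bins of 0 and 1 UMI were apart in Ga and overlapped in Gc, while those of 0 and of 3 or more were apart in both. Ldha differed mainly at the upper end, with 127, 137, 188 and 214 CPM in Ga and 134, 133, 144 and 207 CPM in Gc. Hk1 stood at 78.5, 50.3, 39.5 and 36.2 CPM in Ga and at 82.3, 63.3, 34.9 and 26.1 CPM in Gc. Gpi1 stood at 124, 106, 64.2 and 53.7 CPM in Ga and at 122, 112, 67.5 and 56.7 CPM in Gc. The bins held 4070, 265, 135 and 534 barcodes in Ga and 5076, 337, 153 and 523 in Gc. The median total of the barcodes with 3 or more UMIs was 11156 in Ga and 10606 in Gc, and the part of total RNA in these orders was not tested.

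**Figure D5:**
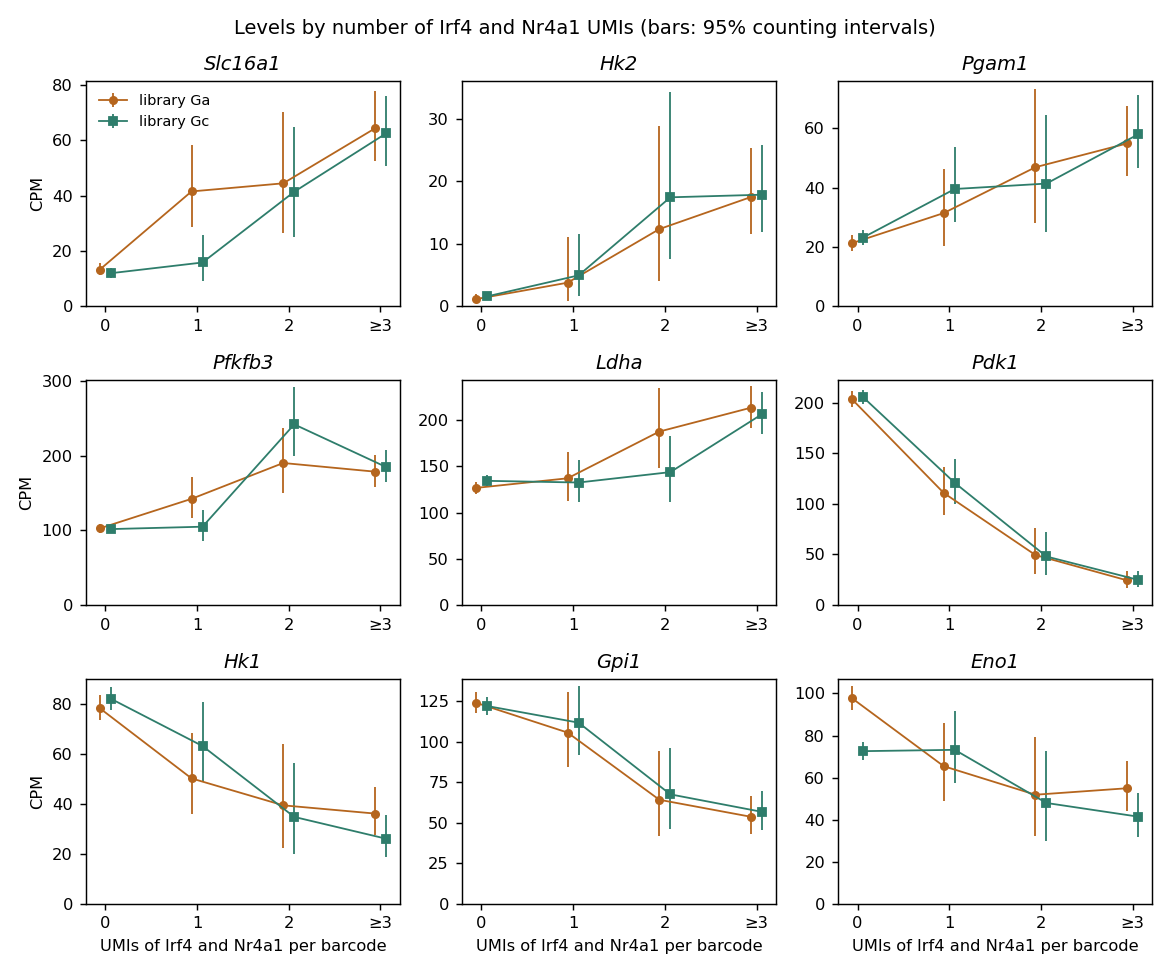
CPM (y axis) of 9 members in barcodes with 0, 1, 2 and 3 or more UMIs of Irf4 and Nr4a1 together (x axis), after thinning to 3000 UMIs. Circles are library Ga and squares Gc, and bars are exact 95% Poisson intervals. Pdk1 steps down to 24.3 and 24.9 CPM and Slc16a1 up to 64.3 and 62.5 CPM in the last bin.

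Irf4 and Nr4a1 marked overlapping barcodes, and the members were read for each gene apart. In Ga, 390 barcodes held Irf4 only, 181 Nr4a1 only and 363 both, and in Gc 440, 194 and 379. Pdk1 was at 51.3, 93.9 and 33.1 CPM in these 3 classes of Ga and at 76.5, 96.2 and 22.9 CPM in those of Gc, all under the 203 and 205 CPM of barcodes with neither. Slc16a1 was at 52.1, 36.8 and 67.0 CPM in Ga and at 37.1, 17.2 and 65.1 CPM in Gc, against 13.3 and 12.0 CPM with neither. Barcodes with both UMIs had the lowest Pdk1 and the highest Slc16a1 in each library, with intervals that overlapped those of the Irf4-only class in Ga and were apart from them in Gc. Pfkfb3 had another order in Ga, with 146 CPM in the Irf4-only, 223 CPM in the Nr4a1-only and 169 CPM in the double class, the last 2 with overlapping intervals.

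Over all T-cell barcodes, the set hardly differed between libraries. The 34 genes summed to 1747 CPM in Gc, 1776 in Gb, 1799 in Ga, 1843 in Hb and 1869 in Ha, a log2 span of 0.10. Of the 29 members with at least 100 UMIs, 4 spanned at least 1.5-fold, beside 23.5% of 11881 genes. Hk2 spanned 4.02-fold (0.849 to 3.56 CPM, highest in Gc), Slc16a1 2.32-fold (9.03 to 21.0 CPM, highest in Ga), Eno1 1.65-fold (69.3 to 114 CPM, highest in Hb) and Pfkfb1 1.51-fold (3.09 to 4.73 CPM). Among unmarked barcodes Pfkfb1 at 1.61-fold and Eno1 at 1.58-fold did, beside 18.3%. Hk2 is not counted there, since it had 66 UMIs in them, 8 to 24 per library, and passed the minimum of 100 only with the marked barcodes included. The 18.3% keeps the minimum over all T-cell barcodes, under which 3 of 29 members pass 1.5-fold, Hk2 included. Slc16a1 spanned 1.46-fold among unmarked barcodes, at 9.06 to 13.3 CPM. The median log2 span of the 29 members, Hk2 included, was 0.37, beside 0.35 for all measured genes, and 0.33 beside 0.29 among unmarked barcodes. Pdk1 ranged from 175 CPM in Ga to 245 CPM in Ha over all T-cell barcodes, and from 203 CPM in Ga to 246 CPM in Ha among unmarked ones.

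Other genes of glucose metabolism also included both higher and lower ones, and their lists were not compared with the 34 genes by a test. The counts are to be read beside the 19.5% higher and 24.8% lower of all genes in Ga, and 18.8% and 21.9% in Gc. Of genes for glucose uptake, the pentose phosphate pathway and side branches of glycolysis, 6 were higher and 3 lower of 24 measured in Ga, and 3 were higher and 3 lower of 23 in Gc. Gpd2, the mitochondrial glycerol phosphate dehydrogenase that passes electrons from cytosolic NADH to the respiratory chain, had 111 CPM in marked and 46.4 CPM in unmarked barcodes of Ga, and 109 and 44.9 CPM in Gc. Gpd1l, related to its cytosolic partner, had 9.28 against 23.9 CPM and 6.25 against 24.6 CPM, and Bpgm, which diverts 1,3-bisphosphoglycerate, 19.3 against 35.1 CPM and 17.8 against 32.6 CPM. The main glucose transporter gene of activated T cells, Slc2a1, singled out after its values were seen, was within 1.5-fold, at 21.8 against 15.9 CPM and 24.4 against 18.8 CPM. Of the citrate cycle genes, 4 were higher and 2 lower of 20 in Ga, and 2 were higher and 3 lower of 20 in Gc. Idh3a, of the NAD-linked isocitrate dehydrogenase, had 40.3 against 18.1 CPM and 38.5 against 15.2 CPM, while Idh1, its NADP-linked relative in the cytosol, had 3.57 against 9.34 CPM and 2.63 against 9.46 CPM. Of the hypoxia-inducible factor machinery and targets, 3 were higher and 3 lower of 17 in Ga, and 4 were higher and 4 lower of 17 in Gc. Vegfa, a growth factor for vessels, had 45.0 CPM in marked and 3.77 CPM in unmarked barcodes of Ga, and 44.8 and 3.02 CPM in Gc. In Gc Vegfa met the minimum level only through the marked barcodes, so its place among the 4 higher calls there is a description only. Bnip3l, a mitophagy receptor and another known target of these factors, had 90.6 against 163 CPM and 96.7 against 168 CPM.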

How the data were processed

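Single-cell 5′ RNA counts of 5 samples were read from the 2 deposited matrices of raw UMI counts, which the authors aggregated with cellranger 7.1.0 per the file headers. The submitters' processing notes name Cell Ranger 6.0.0 and mm10 (GRCm38). Whether aggregation equalised depth, and whether intronic reads counted, are not given in the sources used here. Member genes and all lists were chosen with earlier results of these data known.

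Barcodes with at least 500 UMIs, at most 10% mitochondrial UMIs and a Cd3 UMI were thinned to 3000 UMIs (seed 11). Ratios used CPM of summed UMIs. Calls added 0.5 UMI and needed at least 10 UMIs predicted in the marked barcodes. Spans needed at least 100 UMIs over the libraries. Named genes were all members and, of the other lists, genes past 1.5-fold the same way in at least 2 libraries. Intervals were exact binomial or Poisson. No doublet caller was run. The script was tested on simulated data. Software was Python 3.11.15, numpy 2.4.6, scipy 1.17.1, pandas 2.3.3 and matplotlib 3.10.9. Alternatives changed depth, seed, barcode filters, class rule, scaling, fold and minimum level.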

Additional observations from a re-analysis of the deposited data

How the results depend on the processing

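Of 30 called values in Ga and Gc, 27 kept their direction and 12 stayed past 1.5-fold under all 14 alternatives: Slc16a1, Pgam1, Pdk1 and Hk1 in both libraries, Hk2, Pfkfb3 and Pdk2 in Gc, and Pfkfb2 in Ga. Hk2 in Gc met the minimum level through its marked barcodes, so its place among these values is a description only. Counts of members are given of those measured, beside the share of all genes. Lower in Ga were 4 of 21 with 25 predicted UMIs (22.8%), 4 of 28 at 2-fold (13.4%), 6 of 21 at 1500 UMIs (25.5%), 3 of 21 among Cd4+ barcodes (18.2%), 6 of 21 without barcodes holding other markers (27.6%), 6 of 29 classed on all UMIs (19.4%), 6 of 24 with Nr4a1 alone as the class (26.7%) and 5 of 23 at 7000 to 11000 UMIs (20.9%). Lower in Gc were 3 of 29 at 2-fold (10.1%), 4 of 22 at 1500 UMIs (23.2%), 2 of 23 among Cd4+ barcodes (15.2%), 4 of 22 without other markers (24.7%) and 4 of 29 classed on all UMIs (16.2%). Higher were 2 of 28 in Ga (10.1%) and 3 of 29 in Gc (9.06%) at 2-fold, 4 of 29 in Gc classed on all UMIs (16.6%) and 3 of 25 in Gc with Nr4a1 alone (19.0%).

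The log2 ratio of the sum without Pdk1 was 0.24 in Ga and 0.27 in Gc, and its span over libraries was 0.068. With all 34 genes the span was 0.10, or 0.13 with a second seed. The ratio was 0.38 in Hb at 1500 UMIs, -0.039 in Gb among Cd4+ barcodes, -0.14 in Gb, -0.036 in Ha and 0.98 in Hb without other markers, 0.17 in Gc, 0.64 in Ha and 0.66 in Hb with at least 2 UMIs of Irf4 and Nr4a1, and 0.51 in Gb and 0.076 in Gc with Nr4a1 alone. Directions turned for Eno3 in Ga (0.026) and Pdk1 in Hb (0.088) at 1500 UMIs, for Pfkfb1 in Gc with a second seed (0.021) and classed on all UMIs (0.17), and among Cd4+ barcodes for Pdk2 in Ga (0.12) and Hif1a in Ha (-0.24). The cause was not tested. Barcode classes were paired only within each library. No test was run over the libraries, because each is 1 unassigned sample and the columns carry no replicate number.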
